A study of Mus musculus with 12 samples.

Results

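The interaction of the mVEGF-C vector with mAducanumab is the antibody effect under mVEGF-C minus the antibody effect under the control vector, measured here for every gene. It was taken from all 12 libraries of the series and all 14881 genes of the table, with no selection on measured values. The mice were male APPswe, aged 22 to 26 months, a strain that carries an amyloid precursor protein gene with the Swedish mutation, and no group without that transgene was part of the comparison. A volume of 5 µL of adeno-associated virus was injected into the cisterna magna, a space at the base of the brain filled with cerebrospinal fluid. The vector was AAV1-CMV-eGFP, which encodes a fluorescent protein, or AAV1-CMV-mVEGF-C, which encodes mouse vascular endothelial growth factor C, each under the CMV promoter, which is active in many cell types. Antibody was injected weekly into the peritoneal cavity at 40 mg/kg, as mIgG (control) or mAducanumab (mAdu), which binds aggregated amyloid beta. There were 4 groups of 3. Mice 1, 2 and 3 formed eGFP+mIgG and mice 4, 5 and 6 formed eGFP+mAdu. The group mVEGF-C+mIgG held mice 7, 8 and 9, and mVEGF-C+mAdu held mice 10, 11 and 12. RNA came from 1 hippocampus per mouse according to the series text, while the source label of each sample names the meninges. All 14 listed markers of dentate granule neurons were measured, with a summed level of 682 to 830 counts scaled to library size (CPM). All 20 listed markers of meningeal fibroblasts were measured too, at 249 to 386 CPM.

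VEGF-C acts on its receptor VEGFR3, the product of Flt4, and is the main growth factor of lymphatic vessels, including those in the dura that drain fluid and solutes from the brain. Antibody bound to amyloid plaques can engage Fc receptors on microglia, the resident macrophages of the brain, and start complement. Around plaques, microglia lower their homeostatic genes and express a disease-associated set of genes together with genes that respond to interferon. An interaction of 0 on the log2 scale means that the antibody's fold change was equal under both vectors. A negative value means that it was lower under mVEGF-C, whichever group sets it.

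Libraries 3, 6, 9 and 12 stood apart. Among genes that varied within a group beyond counting error, they held the middle value of their group in 82.6%, 81.9%, 79% and 85.9% of cases, and the other 8 libraries in 5.75% to 12.9%. The genes that passed and the main gene lists are also given without these 4 libraries, a fit in which 1.01% of all genes had a negative and 0.659% a positive value with an unadjusted p under 0.05. Each p treats the 12 libraries as separate animals and is too small if any of them share RNA. Mouse 5, labelled APPswe, had App at 1342 CPM, beside 3716 CPM in mouse 6 and 4721 to 5507 CPM in the other 10. Whether mouse 5 carried the transgene was not tested. Values without it are given for Ide, App and several of the gene lists that it moves, but not for every such list. Library totals ran from 23213612 to 29295266 counts.

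For the gene carried by the vector no interaction was detectable at this precision. Vegfc lay at 3.45, 3.21 and 3.58 CPM in eGFP+mIgG and at 3.5, 3.13 and 3.25 CPM in eGFP+mAdu. It lay at 3.67, 2.27 and 2.21 CPM in mVEGF-C+mIgG and at 2.65, 3.44 and 2.86 CPM in mVEGF-C+mAdu. The groups overlapped, and the interaction was 0.19 with a 95% interval from -0.33 to 0.72. Flt4, its receptor, gave -0.01 with an interval from -0.61 to 0.58, at 1.03 to 1.66 CPM over all mice, and its sign changed when any of several libraries was left out. The wider VEGF list had 15 measured members, of which 1 had an unadjusted p under 0.05 on the negative side and 3 on the positive side, beside 3.51% and 3.31% of all genes. Without libraries 3, 6, 9 and 12 these counts were 0 and 0, and without 1 library they ran from 0 to 3 and from 1 to 3. Plxnd1, a semaphorin receptor of endothelial cells, gave -0.60. Nrp1, a co-receptor of VEGF receptors, gave 0.25, and Adamts3, the protease that helps to activate VEGF-C, gave 0.26.

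Few genes passed the interaction test. Of 14881 genes, 2 (0.0134%) had an adjusted p under 0.05 (edgeR quasi-likelihood, Benjamini-Hochberg), 1 negative (0.00672%) and 1 positive (0.00672%). An unadjusted p under 0.05 was reached by 1015 genes (6.82%), 523 on the negative side (3.51%) and 492 on the positive side (3.31%). The median interaction over all genes was 0.00, and 48.3% of genes were below 0. Precision depended on abundance. The median half-width of the 95% interval was 0.135 for genes over 50 CPM, 0.229 from 5 to 50 CPM, 0.557 from 1 to 5 CPM and 0.875 under 1 CPM. The median interaction also shifted with abundance, from 0.01 over 50 CPM to -0.04 from 1 to 5 CPM and -0.13 under 1 CPM.

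**Figure D1:**
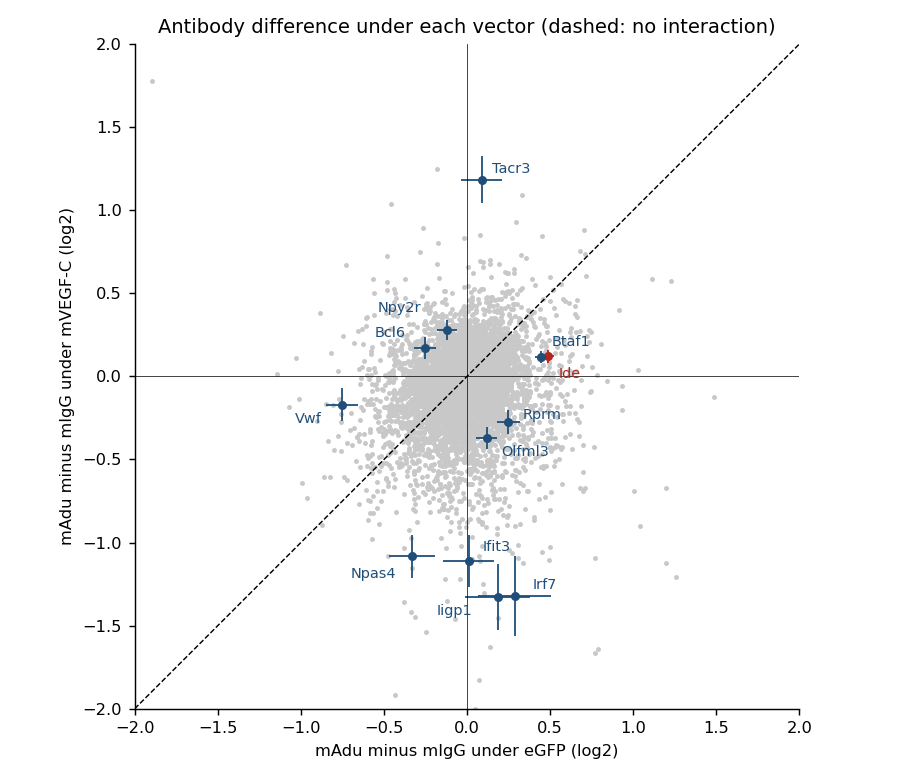
Antibody effect under eGFP (x axis, log2, mice 4 to 6 against 1 to 3) and under mVEGF-C (y axis, log2, mice 10 to 12 against 7 to 9) for each gene, in grey, within 2 log2 units on each axis, with named genes in blue and Ide, which passed the interaction test, in red. Bars are standard errors; the vertical distance from the dashed line is the interaction, 1.10 for Tacr3 above the line and -1.12 for Ifit3 below it.

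Ide was the named gene that passed. It encodes insulin-degrading enzyme, a metalloprotease that degrades insulin and amyloid beta monomers. In eGFP+mIgG it lay at 70.4, 72.7 and 70.2 CPM, and in eGFP+mAdu at 98.8, 99.2 and 100.4 CPM. In mVEGF-C+mIgG it lay at 71.1, 76.7 and 75.7 CPM, and in mVEGF-C+mAdu at 79.6, 80.5 and 83.1 CPM. The eGFP+mAdu mice stood above the other 9, and under mVEGF-C the mAdu mice also stood above the mIgG mice, by less. The antibody difference was 0.48 (SE 0.038) under eGFP and 0.12 (SE 0.0383) under mVEGF-C. The interaction was -0.36 (SE 0.0539, 95% interval -0.48 to -0.25), with an adjusted p = 0.0405 in edgeR's Benjamini-Hochberg adjusted test. Without 1 library at a time the value stayed between -0.40 and -0.34, but the adjusted p in the same test was under 0.05 only without mouse 7 (0.00631) and reached 0.240 without mouse 6. Without libraries 3, 6, 9 and 12 the value was -0.36, with an adjusted p of 1.00.

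The gene lies on chromosome 19 at 37268743 to 37337852 (GRCm38, minus strand). Of the 17 measured neighbours within 1 Mb on either side, 1 had an unadjusted p under 0.05. This was Btaf1, at 36926079 to 37012752, which encodes an ATPase that removes TATA-binding protein from DNA. Btaf1 lay at 84.9, 80.3 and 81.8 CPM in eGFP+mIgG and at 110.2, 111 and 116 CPM in eGFP+mAdu. Under mVEGF-C it lay at 89.4, 86.7 and 89.7 CPM with mIgG and at 97.8, 95.1 and 95.4 CPM with mAdu. As for Ide, the eGFP+mAdu mice were above the other 9, and the mAdu mice were above the mIgG mice under both vectors. Its antibody differences were 0.45 (SE 0.0366) and 0.12 (SE 0.0368), and its interaction was -0.33 (SE 0.0519), just outside the threshold at an adjusted p = 0.0545 in edgeR's Benjamini-Hochberg adjusted test.

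The intervals of the measured genes between the 2 did not reach the value of either. Cpeb3, which encodes an RNA-binding regulator of translation, gave 0.15 (95% interval -0.01 to 0.31). March5, which encodes a mitochondrial ubiquitin ligase, gave -0.10 (-0.24 to 0.04). Fgfbp3, on the far side of Btaf1, gave -0.27 (-0.59 to 0.05) at 4.13 to 6.17 CPM. Myof, on the other side of Ide, had the opposite sign, at 0.35 (SE 0.166). Its antibody differences were -0.45 under eGFP and -0.09 under mVEGF-C. Cpeb3, March5, Fgfbp3 and Myof were named after their values were seen. The median interaction of the 17 neighbours was -0.02.

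**Figure D2:**
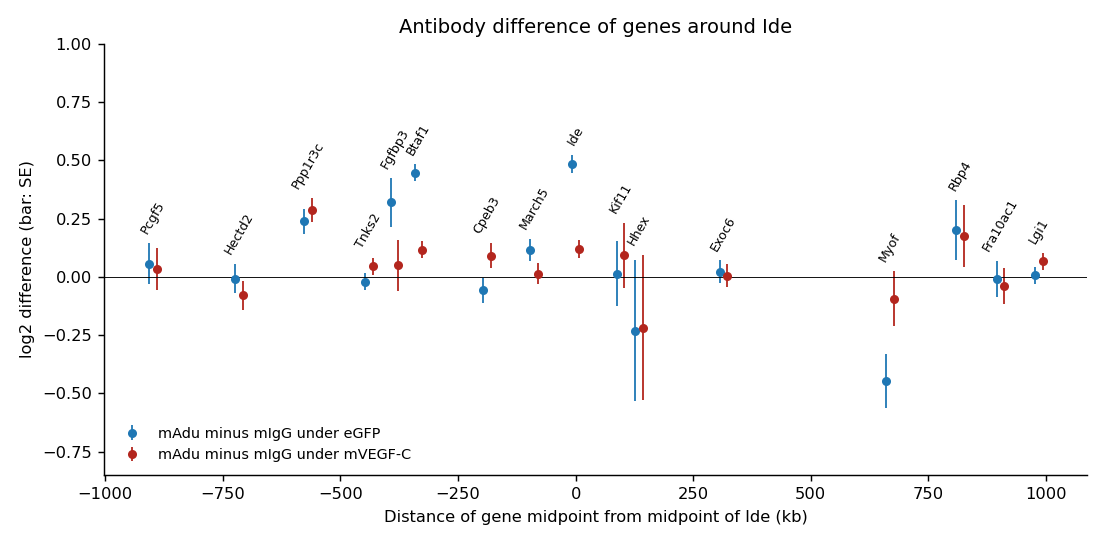
Antibody difference (y axis, log2, bars are standard errors) under eGFP in blue and under mVEGF-C in red for genes within 1 Mb of Ide that had a mean of at least 1 CPM in an eGFP group, by distance of their midpoints from that of Ide (x axis, kb). Ide (0.48 and 0.12) and Btaf1 (0.45 and 0.12) have well separated blue and red points, whereas for Cpeb3 (-0.06 and 0.09) and March5 (0.12 and 0.01) between them the points lie closer together.

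The positive call was ENSMUSG00000045999, an identifier that the annotation used here does not name, given because it was 1 of 2 calls and chosen after its values were seen. It lay at 91435, 91826 and 24414 CPM in eGFP+mIgG and at 154, 236 and 152 CPM in eGFP+mAdu. In mVEGF-C+mIgG it lay at 170.0, 1037 and 132 CPM, and in mVEGF-C+mAdu at 108, 149.9 and 113 CPM. All 3 eGFP+mIgG mice stood far above the other 9, so the interaction of 6.73 (SE 0.910, 95% interval 4.80 to 8.66) came from that single group. The adjusted p was 0.0266 in edgeR's Benjamini-Hochberg adjusted test, and 0.165 without libraries 3, 6, 9 and 12. In that test it stayed under 0.05 without mouse 3, 7 or 8 and was 0.0593 to 0.240 without any other mouse. What RNA these counts represent was not tested.

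Among genes with the smallest p on the positive side, none with a symbol passed. Tacr3, which encodes the neurokinin B receptor, lay at 4.21, 5.16 and 4.34 CPM in eGFP+mIgG and at 4.4, 5.31 and 4.79 CPM in eGFP+mAdu. It lay at 2.49, 2.11 and 1.83 CPM in mVEGF-C+mIgG and at 4.69, 4.81 and 5.07 CPM in mVEGF-C+mAdu. The mVEGF-C+mIgG mice were below all other 9, and the mVEGF-C+mAdu mice were within the range of the eGFP groups. The antibody difference was 0.09 (SE 0.124) under eGFP and 1.18 (SE 0.141) under mVEGF-C, and the interaction 1.10 (SE 0.189) had an adjusted p = 0.111 in edgeR's Benjamini-Hochberg adjusted test. Without 1 library at a time the value stayed between 0.99 and 1.21. The adjusted p in the same test then ran from 0.0189, without mouse 7, to 0.507. Without libraries 3, 6, 9 and 12 the value was 0.99, in a fit where 0 genes passed.

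The next 4 did not pass either, with adjusted p from 0.322 to 0.398 in the edgeR test. Npy2r, a receptor of neuropeptide Y on nerve terminals, gave 0.40, from 58.4 ± 2.85 CPM in eGFP+mAdu to 68.4 ± 4.89 CPM in mVEGF-C+mAdu (SD, n = 3). Bcl6, a transcriptional repressor, gave 0.42. Its level was 33.4 ± 0.649 CPM in eGFP+mAdu and 43.4 ± 4.01 CPM in mVEGF-C+mAdu. These levels are of the mAdu groups alone, whereas the interaction also uses the mIgG groups. Ccdc85a, a coiled-coil protein gene, gave 0.25. Clk1, a kinase that phosphorylates serine-arginine-rich splicing factors, gave 0.35. In these 4 genes the antibody difference was negative under eGFP (-0.25 to -0.12) and positive under mVEGF-C (0.09 to 0.28).

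**Figure D3:**
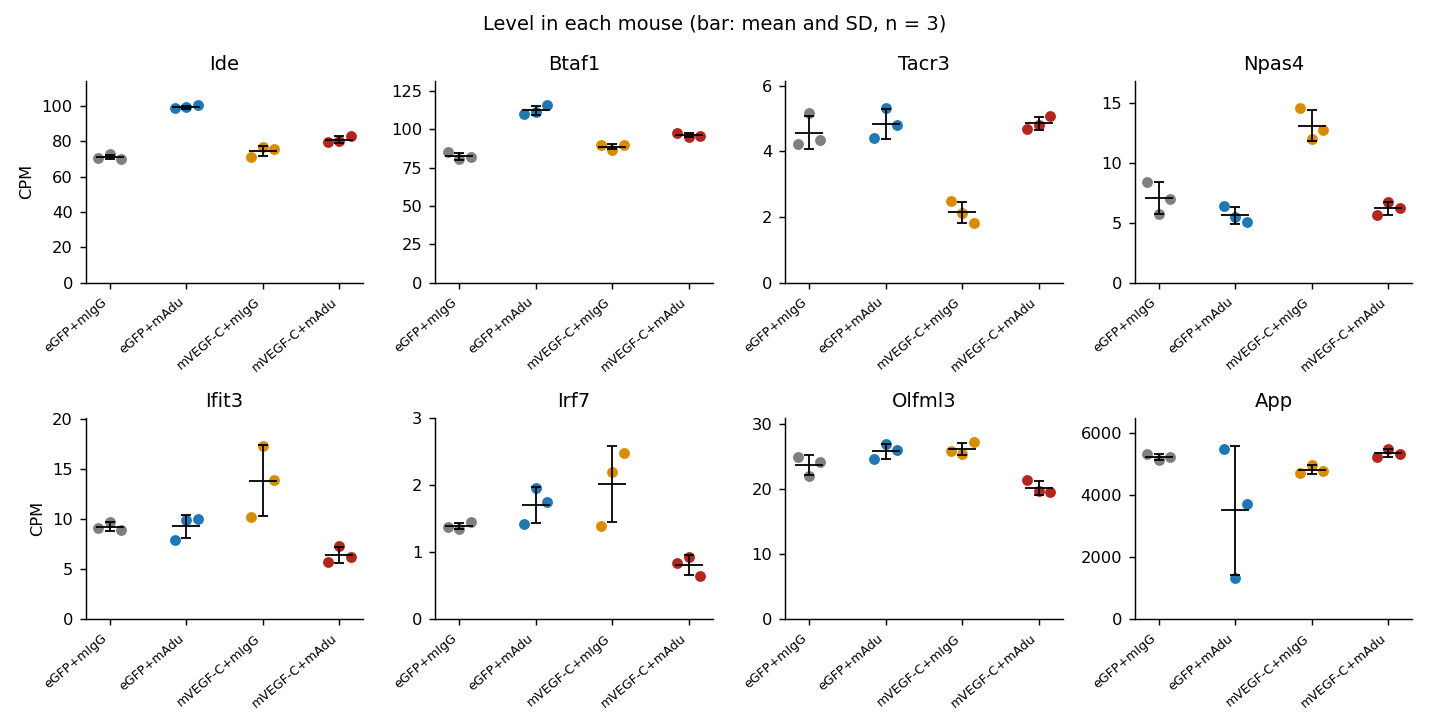
Level of 8 genes in each mouse (y axis, CPM from 0; points are mice, bars the group mean and SD, n = 3), in the order eGFP+mIgG, eGFP+mAdu, mVEGF-C+mIgG and mVEGF-C+mAdu. Ide and Btaf1 are highest in eGFP+mAdu, Tacr3 is lowest and Npas4 highest in mVEGF-C+mIgG, Ifit3, Irf7 and Olfml3 are lowest in mVEGF-C+mAdu, and App is low in mouse 5.

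The lowest list median was that of the interferon response, the genes induced when interferons bind their receptors. All 28 measured members had a negative interaction, beside 48.3% of all genes, and 20 of the 28 had an unadjusted p under 0.05 on the negative side, beside 3.51% of all genes. No member passed after Benjamini-Hochberg adjustment in the edgeR test. The list's median interaction was -0.75, beside 0.00 over all genes. Its members' median antibody difference was 0.04 under eGFP and -0.72 under mVEGF-C. That difference was below 0 in 8 of the 28 under eGFP, beside 50.8% of all genes, and in 27 under mVEGF-C, beside 49.5%. In 12 of the 28, each mVEGF-C+mAdu mouse was below each of the other 9, beside 2.18% of all genes.

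Iigp1, an immunity-related GTPase gene, gave the smallest p of the list. It lay at 2.07, 2.32 and 2.00 CPM in eGFP+mIgG, 2.42, 2.14 and 2.68 CPM in eGFP+mAdu, 2.49, 4.29 and 4.16 CPM in mVEGF-C+mIgG, and 1.42, 1.46 and 1.49 CPM in mVEGF-C+mAdu. Its interaction was -1.51 (SE 0.280, 95% interval -2.10 to -0.92), with an adjusted p = 0.161 (edgeR quasi-likelihood, Benjamini-Hochberg). The low end was shared by all mVEGF-C+mAdu mice, and the high end by mice 8 and 9.

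Ifit3, which encodes an antiviral protein with tetratricopeptide repeats, followed the same order. Its levels were 9.11, 9.72 and 8.88 CPM, then 7.97, 9.91 and 10.02 CPM, under eGFP with mIgG and with mAdu. Under mVEGF-C they were 10.3, 17.3 and 14.0 CPM with mIgG and 5.76, 7.28 and 6.20 CPM with mAdu. Its interaction was -1.12 (95% interval -1.59 to -0.65), with an adjusted p = 0.219 in the edgeR test. Irf7, the transcription factor that amplifies type I interferon, gave -1.61 (-2.30 to -0.92), with 0.644 to 0.930 CPM in mVEGF-C+mAdu and 1.35 to 2.48 CPM in the other 9 mice.

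Mouse 7 was unlike mice 8 and 9 of its group in this list. The summed level of the 28 genes was 184 CPM in mouse 7, 240 CPM in mouse 8 and 214 CPM in mouse 9. It was 177.5, 185 and 179 CPM in eGFP+mIgG, 169, 196 and 183 CPM in eGFP+mAdu, and 150.1, 157 and 155 CPM in mVEGF-C+mAdu. The sum was thus lowest in the 3 mVEGF-C+mAdu mice and highest in mice 8 and 9, and mouse 7 lay within the eGFP range. Without mouse 7, 7 members passed after adjustment, beside 0.188% of all genes that passed with a negative value in that fit, and the list's median was -0.85. Without mouse 8, 25 members were negative, 16 with an unadjusted p under 0.05, and the median was -0.61. Without mouse 5 the numbers were 27, 16 and -0.66, and without libraries 3, 6, 9 and 12 they were 27, 14 and -0.75, beside 1.01% of all genes. The level of choroid plexus markers was also lowest in mice 10 to 12, so a fit that includes it cannot cleanly separate it from that group. When the mean level of those markers entered the fit, 26 of the 28 interferon genes were negative, 9 with an unadjusted p under 0.05, and their median was -0.64. For 20 antigen presentation genes that fit gave 18, 2 and -0.30, beside 2.09% of all genes.

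The start regions of several of these genes share a short sequence. The interferon-type repeat (GAAA, any 2 bases, GAAA), the core of elements bound by interferon regulatory factors, was searched on both strands in the RefSeq windows (GRCm38.p6) from 250 bases before to 50 bases after gene starts. It was found in 13 of the 20 matched (of 28 measured) interferon genes, in 3 of 15 matched antigen presentation genes and in 3.99% of 27025 genes. The 250 bases before the start of 4 list members are given here to show it, 5′ to 3′, with the repeat in capitals (TTTC, 2 bases, TTTC is the same repeat read on the other strand). Ifit1 and Rsad2 were chosen after their values were seen. Only genes with a match are printed, and Irf7, H2-K1 and H2-Q4 had windows without one.
Ifit3, chr19:34583279-34583528, plus strand: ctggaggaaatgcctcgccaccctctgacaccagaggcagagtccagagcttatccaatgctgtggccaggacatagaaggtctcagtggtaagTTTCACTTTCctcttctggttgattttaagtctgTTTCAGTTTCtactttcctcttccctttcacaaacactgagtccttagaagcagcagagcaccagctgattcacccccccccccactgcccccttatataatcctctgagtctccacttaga
Ifit1, chr19:34640639-34640888, plus strand: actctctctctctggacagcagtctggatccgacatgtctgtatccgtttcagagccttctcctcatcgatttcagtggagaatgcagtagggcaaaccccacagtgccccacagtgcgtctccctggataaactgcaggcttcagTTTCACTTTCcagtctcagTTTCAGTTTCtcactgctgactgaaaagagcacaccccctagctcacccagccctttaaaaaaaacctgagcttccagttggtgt
Rsad2, chr12:26456453-26456702, minus strand: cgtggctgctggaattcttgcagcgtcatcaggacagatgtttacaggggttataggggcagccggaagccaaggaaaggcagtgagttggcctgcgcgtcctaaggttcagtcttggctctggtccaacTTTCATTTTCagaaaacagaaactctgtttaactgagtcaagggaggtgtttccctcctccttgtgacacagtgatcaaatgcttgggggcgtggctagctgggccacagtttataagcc
B2m, chr2:122147437-122147686, plus strand: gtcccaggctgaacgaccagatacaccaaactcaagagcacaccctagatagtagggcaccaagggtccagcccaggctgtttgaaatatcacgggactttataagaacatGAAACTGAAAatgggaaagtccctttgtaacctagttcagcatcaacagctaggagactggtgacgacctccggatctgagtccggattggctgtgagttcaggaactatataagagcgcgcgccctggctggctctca
A match describes letters and is not a measured binding site. Ifit3 and Ifit1 have 2 repeats each within these bases, and Rsad2 and B2m have 1. The interactions of Ifit1, a neighbour and relative of Ifit3, and of Rsad2, which encodes the antiviral protein viperin, were -1.40 (SE 0.355) and -1.19 (SE 0.311). Reads of Ifit1 and Ifit3 may be split between similar copies, since the treatment of reads that fit several places is not given in the sources used here.

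Genes of antigen presentation, which load peptides onto class I and class II molecules, lay on the same side. All 20 measured members were negative, beside 48.3% of all genes, and 8 had an unadjusted p under 0.05, beside 3.51%. None passed after adjustment in the edgeR test. Without mouse 7, 13 had such a p, beside 5.23% of all genes on the negative side in that fit. There 4 passed, beside 0.188% of all genes that passed with a negative value. Without mouse 8 there were 17 negative and 5 with such a p, beside 3.64% of all genes. Without libraries 3, 6, 9 and 12 there were 18 and 3, beside 1.01%. The list's median was -0.58, with median antibody differences of 0.02 under eGFP and -0.59 under mVEGF-C. B2m, the light chain of class I molecules, lay at 82.1, 89.0 and 87.3 CPM in eGFP+mIgG and at 75.0, 99.4 and 86.4 CPM in eGFP+mAdu. It lay at 85.1, 128 and 102 CPM in mVEGF-C+mIgG and at 74.0, 70.1 and 70.4 CPM in mVEGF-C+mAdu, below all other 9 mice, with an interaction of -0.57 (95% interval -0.91 to -0.23). H2-K1, a class I heavy chain, gave -0.60, and H2-Q4, a non-classical class I gene, gave -1.02. Class I genes are near copies of each other, so their separate values are uncertain.

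Microglial lists were also negative, with smaller values. Of 15 complement genes, 11 were negative (48.3% of all genes) and 5 had a negative value with an unadjusted p under 0.05 (3.51% of all genes), with a median of -0.23. The count of 5 was 3 without mouse 1, 3 without mouse 10, 2 without mouse 8 and 3 without libraries 3, 6, 9 and 12. C1qc and C1qa, which encode chains of the first complement component, gave -0.44 and -0.47. Both were below the other 9 mice in each mVEGF-C+mAdu mouse, with C1qa at 46.1, 51.5 and 49.7 CPM there and at 55.3 to 81.1 CPM elsewhere. C3, the central complement protein gene, gave -0.61, and its antibody difference was negative under both vectors, -0.48 (SE 0.161) under eGFP and -1.08 (SE 0.170) under mVEGF-C.

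Of 26 disease-associated microglial genes, 23 were negative and 10 had an unadjusted p under 0.05 (median -0.19), beside 48.3% and 3.51% of all genes. The count of 10 was 3 without mouse 5, 5 without mouse 1 and 6 without mouse 8, 10 or 12. It was 15 without mouse 7, where the share of all genes rose to 5.23%, and 1 without libraries 3, 6, 9 and 12. Without mouse 8 there were 18 negative members and a median of -0.11. Cst7, a cysteine protease inhibitor of plaque-associated microglia, was at 0.192, 0.202 and 0.242 CPM in mVEGF-C+mAdu and at 0.367 to 1.91 CPM in the other 9 mice. Its interaction was -2.26, with a wide 95% interval from -3.91 to -0.62 at these low levels. Spp1, which encodes osteopontin, gave -0.68, and Ctsz, a lysosomal protease gene, gave -0.28. None of the 26 passed after adjustment.

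Homeostatic microglial genes lay on the same side. Of 15, 14 were negative and 8 had an unadjusted p under 0.05, beside 48.3% and 3.51% of all genes, with a median of -0.18. The count of 8 was 5 without mouse 5 and 2 without libraries 3, 6, 9 and 12. Olfml3, a secreted protein of microglia, lay at 25.1, 22.0 and 24.2 CPM in eGFP+mIgG and at 24.6, 26.9 and 26.1 CPM in eGFP+mAdu. It lay at 25.9, 25.4 and 27.3 CPM in mVEGF-C+mIgG and at 21.5, 19.7 and 19.6 CPM in mVEGF-C+mAdu, below all other 9. Its interaction of -0.49 (SE 0.0895) had an adjusted p = 0.161 in edgeR's Benjamini-Hochberg adjusted test. Tmem119 gave -0.55 and Cx3cr1, the fractalkine receptor, gave -0.20. In bulk tissue, fewer microglia and less RNA per microglial cell cannot be told apart.

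Fc receptor and phagocytosis genes, the means by which microglia take up antibody-bound material, had 14 of 17 members negative and 4 with an unadjusted p under 0.05 (median -0.20), beside 48.3% and 3.51% of all genes. Without mouse 5 the median was -0.089, and without libraries 3, 6, 9 and 12 the count of 4 was 1. Itgam and Itgb2 are members of both this list and the complement list. Fcgr2b, the inhibitory Fc receptor, lay at 1.96, 2.18 and 2.25 CPM in mVEGF-C+mAdu and at 2.53 to 3.74 CPM in the other 9 mice, an interaction of -0.62. Ptprc, the leukocyte marker CD45, gave -0.70. In both genes each mVEGF-C+mAdu mouse was below the other 9. With choroid plexus markers in the fit, 5 homeostatic microglial and 3 Fc receptor genes had a negative value with an unadjusted p under 0.05, beside 2.09% of all genes, at list medians of -0.22 and -0.21. In that fit 0 of the complement, 0 of the disease-associated and 0 of the reactive astrocyte genes did, at medians of -0.16, -0.22 and -0.29. The level of choroid plexus markers was lowest in mVEGF-C+mAdu, so that fit cannot cleanly separate it from the group.

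Markers of macrophages at the brain's borders had positive values, but 3 of 10 were measured. Cd163, a scavenger receptor gene, gave 1.21 and F13a1, coagulation factor XIII, gave 0.75, both with an unadjusted p under 0.05, beside 3.31% of all genes. Without mouse 3, and without libraries 3, 6, 9 and 12, 0 of the 3 had such a p. Mrc1, the mannose receptor, gave 0.18. The summed level of the 3 was 9.58 to 10.9 CPM in eGFP+mIgG, 5.12 to 10.2 CPM in eGFP+mAdu and 6.03 to 7.26 CPM in the 6 mVEGF-C mice. Mouse 5 had the lowest sum, and without it Cd163 gave 1.05, F13a1 0.52 and Mrc1 -0.062.

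**Figure D4:**
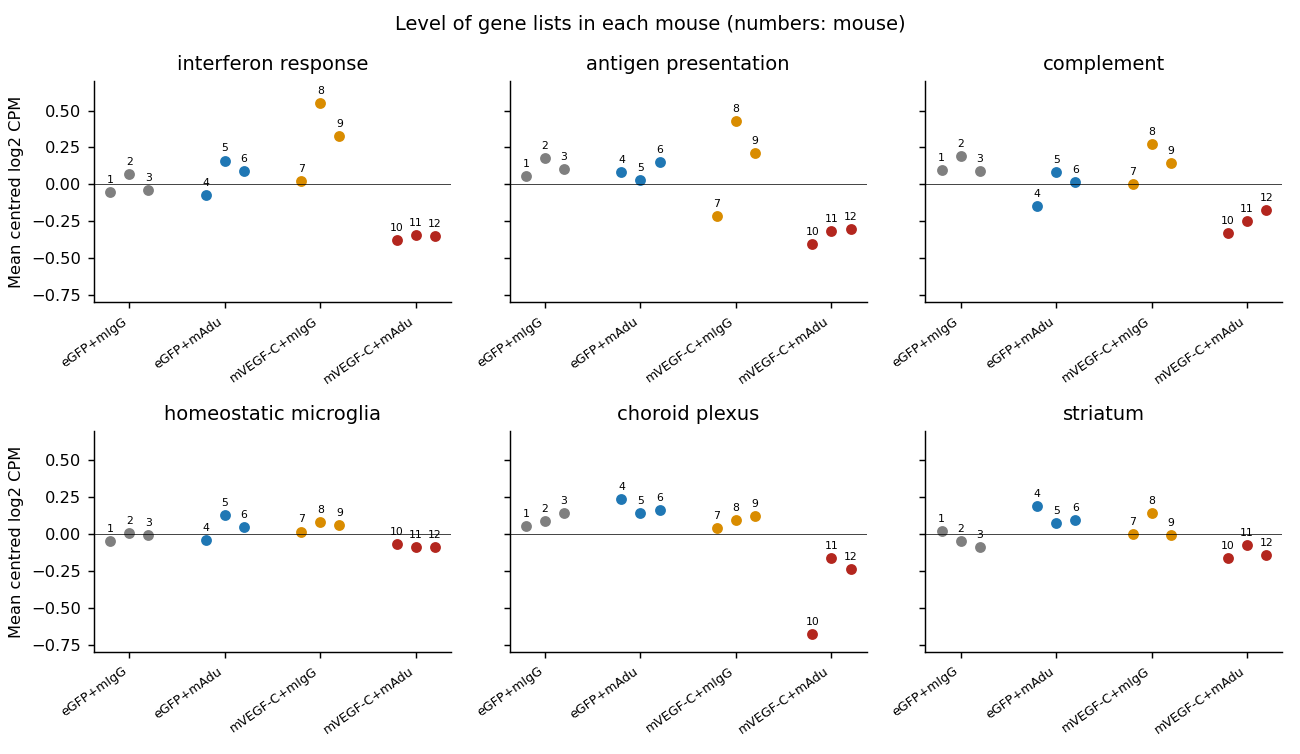
Level of 6 gene lists in each mouse, as the mean over members of log2 CPM centred per gene (y axis), with the mouse number above each point. For the interferon response mice 10 to 12 sit at -0.38 to -0.34 and mouse 8 at 0.55, while for choroid plexus mouse 10 sits apart at -0.68.

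Reactive astrocyte genes had 17 of 18 members negative and 5 with an unadjusted p under 0.05 (median -0.30), beside 48.3% and 3.51% of all genes. The list shares C4b with the complement list and Gbp2 with the interferon list. The count of 5 was 3 without mouse 3, 2 without mouse 5 and 2 without libraries 3, 6, 9 and 12, and the median was -0.20 without mouse 8. S100a10, an annexin partner, gave -0.36, Hspb1, a small heat shock protein gene, gave -0.73, and Ggta1, a galactosyltransferase gene, gave -0.53. Hspb1 differed in its form, since its antibody difference was 0.64 (SE 0.188) under eGFP and -0.08 (SE 0.182) under mVEGF-C. Homeostatic astrocyte genes were split, 8 negative and 8 positive, with a median of 0.00. Gjb6, the gap junction protein connexin 30, had the smallest p of them, at 0.20.

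Of 17 genes of myelinating oligodendrocytes (median -0.11), 16 were negative, beside 48.3% of all genes. Only 1 had a negative value with an unadjusted p under 0.05, beside 3.51% of all genes. That was Mobp, a structural protein of myelin, at 456, 481 and 474 CPM in eGFP+mIgG and 405, 512 and 459.7 CPM in eGFP+mAdu. It lay at 611, 658 and 651 CPM in mVEGF-C+mIgG and at 509, 509 and 498 CPM in mVEGF-C+mAdu. The mVEGF-C+mIgG mice were above the other 9, and the interaction was -0.31 (SE 0.0868), with an adjusted p = 0.491 in edgeR's Benjamini-Hochberg adjusted test. Bcas1, a marker of newly formed oligodendrocytes, was also highest in that group, from 65.4 ± 4.81 CPM in eGFP+mIgG to 87.8 ± 5.77 CPM in mVEGF-C+mIgG (SD, n = 3), and gave -0.30.

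Immediate early genes, which neurons transcribe within minutes of activity, had no common direction. Of 34, 16 were negative and 18 positive, 4 and 2 with an unadjusted p under 0.05, beside 3.51% and 3.31% of all genes, with a median of 0.00. Without mouse 11, 26 were negative, and the count of 4 ran from 2 to 6 without 1 library. Npas4, an activity-dependent transcription factor of neurons, lay at 8.46, 5.76 and 7.02 CPM in eGFP+mIgG and at 6.44, 5.45 and 5.07 CPM in eGFP+mAdu. It lay at 14.6, 12.0 and 12.8 CPM in mVEGF-C+mIgG and at 5.65, 6.75 and 6.24 CPM in mVEGF-C+mAdu. The mVEGF-C+mIgG mice were thus above the other 9, and those given mAdu as well lay in the eGFP range. Its interaction was -0.75 (SE 0.189, 95% interval -1.15 to -0.35), with an adjusted p = 0.408 in edgeR's Benjamini-Hochberg adjusted test.

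Fos did not share that order. It lay at 11.4 to 18.9 CPM in the 6 eGFP mice and at 23.2 to 36.4 CPM in the 6 mVEGF-C mice, with or without mAdu, and its interaction was -0.24 (95% interval -0.72 to 0.23). Nptx2, a pentraxin of excitatory synapses, gave -0.27. Klf4, a zinc finger transcription factor, gave 0.62, and lay at 3.76, 4.85 and 4.39 CPM in mVEGF-C+mAdu and 2.25 to 3.30 CPM in the other 9 mice. Start windows of immediate early genes were searched on both strands for the cyclic AMP response element TGACGTCA, its part TGACG, which the former contains, and the CArG box. The first was found in 3 of 28 matched genes (2.03% of all genes), the shorter in 20, Npas4, Fos and Klf4 among them (23.05%), and the CArG box in 2 (1.81%).

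Markers of dentate granule cells, the main neurons of the dentate gyrus, were mostly positive. Of 14, 10 were positive and 4 negative (48.3% of all genes), and 5 had a positive value with an unadjusted p under 0.05 (3.31% of all genes), with a median of 0.08. The count of 5 was 2 without mouse 5, 9 or 11, 3 without mouse 1, 6 or 8 and 0 without libraries 3, 6, 9 and 12. Their median antibody difference was -0.22 under eGFP and -0.09 under mVEGF-C. Prox1, the granule cell transcription factor, lay at 55.5, 57.9 and 55.3 CPM in eGFP+mIgG and at 41.0, 51.2 and 42.8 CPM in eGFP+mAdu. Under mVEGF-C it lay at 46.7 to 55.8 CPM with mIgG and at 48.1 to 54.5 CPM with mAdu, and its interaction was 0.32. Npnt, an extracellular matrix protein gene, gave 0.30, and Tdo2, tryptophan dioxygenase, gave 0.46. Dsp, a desmosomal protein of granule cells, gave 0.38, with antibody differences of -0.64 (SE 0.114) under eGFP and -0.26 (SE 0.114) under mVEGF-C. CA1 and CA3 markers had medians of 0.01 and 0.00, with Man1a at -0.25, Gpr161 at 0.29 and Prkcd, which thalamic neurons also express, at -0.90.

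Among 7 measured tachykinin and neuropeptide Y genes, 5 were positive, among them the receptors Tacr3 and Npy2r, and 2 negative, beside 48.3% of all genes. Npy, the peptide, gave -0.32, with 29.1 to 38.2 CPM in eGFP+mAdu and 29.5 to 32.0 CPM in mVEGF-C+mAdu. These ranges overlap and are of the mAdu groups alone, whereas the interaction also uses the mIgG groups. Rprm, a cell cycle regulator found in some cortical and subicular neurons, was the fifth negative gene by p, at -0.52 (SE 0.0988) with an adjusted p = 0.172 in edgeR's Benjamini-Hochberg adjusted test. Its antibody difference was 0.25 under eGFP and -0.28 under mVEGF-C. Dsc3, a desmosomal cadherin, gave 0.64, with 4.97 to 6.52 CPM in mVEGF-C+mIgG below 7.55 to 12.9 CPM in the other 9 mice.

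Among markers of choroid plexus, ependyma, striatum, thalamus and neocortex none passed the test after adjustment. Of 11 measured choroid plexus markers, 10 were negative and 4 had an unadjusted p under 0.05, beside 48.3% and 3.51% of all genes, with a median of -0.49. The count of 4 was 0 without mouse 4, 1 without mouse 3, 6 or 9, 2 without mouse 10 and 1 without libraries 3, 6, 9 and 12. The mean centred log2 level of the list was -0.68, -0.16 and -0.24 in mice 10, 11 and 12 and 0.04 to 0.23 in the other 9. Ttr, transthyretin, the chief secreted protein of choroid plexus, lay at 30.4, 74.2 and 50.1 CPM in eGFP+mIgG and at 63.1, 46.1 and 59.6 CPM in eGFP+mAdu. It lay at 19.2, 29.1 and 27.4 CPM in mVEGF-C+mIgG and at 18.8, 14.3 and 16.8 CPM in mVEGF-C+mAdu. Its interaction was -0.74 (95% interval -1.46 to -0.02), while Folr1, a folate receptor, gave -0.90, Otx2, a transcription factor, -1.27 and Clic6, a chloride channel protein gene, -0.80. The summed level of the 11 genes, most of it Enpp2, which oligodendrocytes also express, was 297 to 300.3 CPM in mVEGF-C+mAdu and 299.8 to 387 CPM elsewhere.

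Ependymal markers, from cells that line the ventricles, were negative in 11 of 12 (median -0.31), 1 with an unadjusted p under 0.05, beside 48.3% and 3.51% of all genes. With choroid plexus markers in the fit, 3 of 12 were negative. Ccdc153, of motile cilia, gave -0.49. Striatal markers were negative in 10 of 13, 5 with an unadjusted p under 0.05 (median -0.22), beside 3.51% of all genes, and their summed level was 415 to 425 CPM in mVEGF-C+mAdu and 436 to 467 CPM in the other 9 mice. The count of 5 was 3 without mouse 3, 4 or 12, 2 without libraries 3, 6, 9 and 12 and 2 with choroid plexus markers in the fit. Markers of thalamus and neocortex were negative in 7 of 10 and 10 of 12, beside 48.3% of all genes, with medians of -0.09 and -0.17. Each had 1 negative member at an unadjusted p under 0.05, beside 3.51% of all genes. The neocortex list also had 1 positive member at such a p, beside 3.31% of all genes. The thalamic one was Prkcd, which is also in the CA3 list. Drd1, the D1 dopamine receptor, gave -0.64 (adjusted p = 0.322 in the edgeR test) and Penk, proenkephalin, gave -0.57. When the mean level of choroid plexus markers entered the fit, no gene passed (722 had an unadjusted p under 0.05 in edgeR). That level was lowest in the mVEGF-C+mAdu mice, so the fit cannot cleanly separate it from that group. In that fit Eomes and Igfbpl1, markers of immature neurons, turned from -2.43 and -1.46 to 0.73 and 0.99. The part of dissected tissue in the other lists was not tested.

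Blood vessel markers had no common direction, with 11 of 20 negative and a median of -0.01. Vwf, von Willebrand factor, was the 1 member of 20 with an unadjusted p under 0.05, on the positive side, beside 3.31% of all genes. It lay at 16.5, 16.3 and 15.5 CPM in eGFP+mIgG, above 8.52 to 12.3 CPM in the other 9 mice. Its antibody difference was -0.75 (SE 0.0944) under eGFP and -0.17 (SE 0.0985) under mVEGF-C, and its interaction 0.58 (SE 0.137) had an adjusted p = 0.398 in edgeR's Benjamini-Hochberg adjusted test. Lymphatic markers had 5 of 8 measured, and Lyve1, Ccl21a and Mmrn1 were not among them. Prox1 and Reln (-0.38), which hippocampal neurons also express, are 2 of the 5.

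Genes of amyloid production and clearance were split, 16 negative and 14 positive of 30, with a median of -0.01 and Ide as the member that passed. App, the amyloid precursor, lay at 5337, 5146 and 5225 CPM in eGFP+mIgG and at 5487, 1342 and 3716 CPM in eGFP+mAdu. It lay at 4721, 4995 and 4786 CPM in mVEGF-C+mIgG and at 5238, 5507 and 5347 CPM in mVEGF-C+mAdu. Its interaction of 0.73 (SE 0.410, 95% interval -0.15 to 1.60) rested on the eGFP+mAdu mice and was 0.34 without mouse 5. Prnp, the prion protein gene, chosen after its values were seen, was also low in mouse 5, at 1184 CPM beside 2448 CPM in mouse 6 and 3036 to 3434 CPM in the other 10. Ide without mouse 5 was -0.37, with an adjusted p of 0.0866 in edgeR's Benjamini-Hochberg adjusted test.

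Lists of general cell functions gave small values. Their counts of negative and positive members stand beside 48.3% of all genes with a negative value. Of 23 splicing regulators of the serine-arginine-rich type and their kinases, 18 were positive and 4 had an unadjusted p under 0.05 (median 0.06), beside 3.31% of all genes, with 1 such member without libraries 3, 6, 9 and 12, 2 without mouse 11 and 7 without mouse 2. Srsf10 lay at 69.0, 76.7 and 75.1 CPM in mVEGF-C+mAdu, above 58.0 to 66.0 CPM in the other 9 mice, and gave 0.23. Rbm5, an RNA-binding splicing regulator, gave 0.20. Of 30 ribosomal protein genes, 23 were negative, 6 with an unadjusted p under 0.05 (median -0.05), beside 3.51% of all genes, with Rpl23 at -0.16. The count of 6 ran from 1 without mouse 12 to 11 without mouse 2, and was 0 without libraries 3, 6, 9 and 12. Of 20 heat shock genes, 15 were positive, with a median of 0.05. With an unadjusted p under 0.05, 0 were positive and 1 was negative, beside 3.31% and 3.51% of all genes. In 6 each mVEGF-C+mAdu mouse was above the other 9, beside 3.15% of all genes. The list's median antibody difference was 0.05 under eGFP and 0.07 under mVEGF-C, so that count does not measure an interaction. Nuclear genes of the respiratory chain were evenly split, 14 against 14, with a median of 0.00. All 8 measured respiratory chain genes of the mitochondrial genome were negative, 0 with an unadjusted p under 0.05, with a median of -0.12. Glutamate and GABA receptor genes had 18 of 39 negative and a median of 0.01. Among 19 clock genes 11 were positive (Hlf 0.31), among 16 glucocorticoid-response genes 10 (Tsc22d3 0.25) and among 19 genes of the unfolded protein response 13 (Xbp1 0.17). The gene in brackets is the member with the smallest p, and the list medians were 0.04, 0.10 and 0.02.

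**Figure D5:**
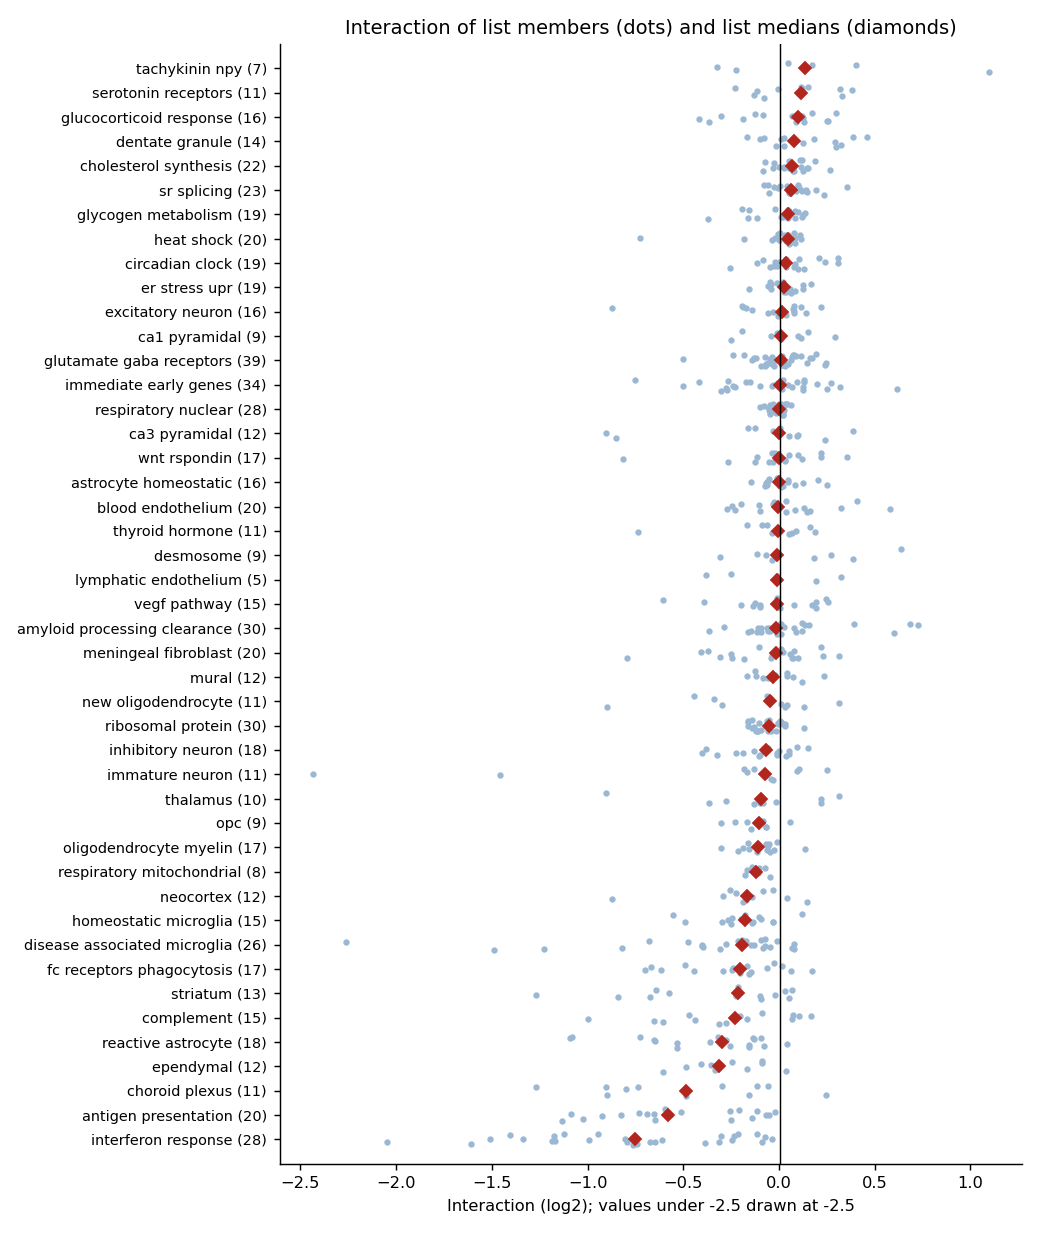
Interaction (x axis, log2) of each measured member (dots) of the gene lists with at least 5 measured members, sorted by list median (diamonds), with the number measured in brackets; the vertical line is the median of all genes, 0.00, and values under -2.5 are drawn at -2.5. The interferon response and antigen presentation lists have the lowest medians, -0.75 and -0.58, and no member above 0.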

How the data were processed

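RNA of 12 mouse hippocampus samples was isolated with a PicoPure kit and amplified linearly before sequencing, per the labels' protocols. The deposited table holds raw counts per gene. The submitters' processing notes name FastQC, Trim Galore, STAR, Subread, featureCounts, edgeR and the build mm10, with versions and strand setting not given in the sources used here. Amplification and counting of reads without molecular identifiers mean that counting error understates the spread.

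All 14881 genes (lowest total 147 counts) passed filterByExpr and were fitted together over 4 groups of 3 with edgeR 4.0.16 (TMM scaling, quasi-likelihood F test, Benjamini-Hochberg adjustment over all genes) in R 4.3.3. The contrast was the antibody difference under mVEGF-C minus that under eGFP. SE was the size of the log2 value divided by the root of F, and 95% intervals used the t quantile. CPM were TMM-scaled. Alternatives used limma 3.58.1 and DESeq2 1.42.0. The fit was tested on simulated data.

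The comparison and the 47 gene lists were chosen with earlier results of these data known. Named genes were up to 5 per direction by smallest p where fewer passed, up to 3 per list by smallest p, and Vegfc, Flt4, App, Ide, Btaf1, Npas4, Fos, Tacr3, Mobp, Ttr and Vwf; some that the rule names are not reported here. Promoter windows came from RefSeq, and gene positions from GENCODE M21.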

Additional observations from a re-analysis of the deposited data

Results flagged for a closer look

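For 2 genes the antibody difference under the 2 vectors differed by the interaction test after adjustment over all 14881 genes. Ide had an interaction of -0.36, from an antibody difference of 0.48 under eGFP and 0.12 under mVEGF-C, with no overlap between the eGFP+mAdu mice and the other 9. ENSMUSG00000045999 had an interaction of 6.73, and its level was high in the 3 eGFP+mIgG mice alone.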

How the results depend on the processing

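With 2 genes past the threshold as reported, 8 passed in the DESeq2 Wald test (1 positive and 7 negative; ENSMUSG00000045999 got no adjusted p there), 220 in limma-voom with quality weights (96 positive and 124 negative), 0 with robust dispersions, 1 on the additive CPM scale, 0 with the choroid plexus covariate and 0 without libraries 3, 6, 9 and 12. In the fits with no call, edgeR gave an unadjusted p under 0.05 for 980, 722 and 248 genes. The quality weights were highest for libraries 3, 6, 9 and 12, at 2.13 to 2.92 beside 0.419 to 0.780 for the others. Leaving out 1 library at a time gave 0 to 36 calls, the highest without mouse 7 (8 positive and 28 negative), with 734 to 1473 unadjusted. DESeq2's size factors or no filter gave 2 calls, and a mean of at least 1 CPM gave 3.

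Ide passed in all fits named above except robust dispersions (adjusted p 0.0586), the covariate (0.857), the fit without libraries 3, 6, 9 and 12, and 11 of the 12 fits that left out 1 library. The choroid plexus covariate was lowest in the mVEGF-C+mAdu mice and cannot be cleanly separated from that group. With this covariate the sign changed for Eomes (0.73), Igfbpl1 (0.99), Otx2 (0.91), Clic6 (0.56), Fos (0.34), Ccdc153 (0.15) and Prkcd (0.054). Flt4 gave 0.080 without libraries 3, 6, 9 and 12 and -0.17 to 0.15 without 1 library. Mrc1 gave -0.062 to 0.43 without 1 library, negative without mouse 5. The cause was not tested.

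No paired analysis was possible because no replicate number is shared between groups. Depth limits genes under 5 CPM, where the typical 95% interval is wider than 0.5 on either side.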
